A study of Mus musculus with 19 samples.

Results

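The P450 genes of the Cyp1, Cyp2 and Cyp3 families were described in mouse liver across the reproductive cycle. Members were all gene symbols that begin with Cyp1, Cyp2 or Cyp3 followed by a subfamily letter and a number, except Cyp2c70, which gave 57 genes of 16 subfamilies among the 51826 gene entries. Liver RNA came from 19 female Balb/c mice, an inbred strain, each a separate animal with an age label of 12 weeks. The groups were 7 nulliparous mice, which had never given birth, 6 mice at lactation day 10 and 6 mice at involution day 6, the time after weaning when the mammary gland regresses. The labels name no transgene, deletion or treatment. Single mice are named by group (NUL, LAC or ID6) and the number in the label, called the animal number here. Per the study's methods the mice were bought from 2 vendors and the caudate lobe was used, and the labels do not say which mouse came from which vendor. Values are TPM, the share of a gene's transcripts among 1000000 transcripts of that mouse after correction for gene length, and TPM keeps no record of sequencing depth.

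P450 enzymes are heme proteins of the endoplasmic reticulum that insert an oxygen atom into their substrates with electrons passed on from NADPH by the reductase Por. Members of the Cyp1, Cyp2 and Cyp3 families carry out most of the first oxidation step of drug metabolism, and many also act on steroids, arachidonic acid and other lipids. In liver they are mainly made by hepatocytes, several of them are induced by the receptors Ahr (AhR), Nr1i3 (CAR) and Nr1i2 (PXR), and in mice a number of them differ between females and males through growth hormone.

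The members together held a similar share of all TPM in each stage, with medians of 1.55% in nulliparous mice (range 1.15% to 2.15%), 1.58% in lactating mice (1.26% to 1.97%) and 1.51% in involution mice (1.26% to 1.65%). Their summed level was 16154 ± 3258 TPM (SD, n = 7) in nulliparous mice, 15986 ± 3409 (n = 6) in lactation and 14736 ± 1482 (n = 6) in involution. The differences between these sums were smaller than the spread between mice. In bulk tissue such as this, fewer cells of a type and less RNA per cell cannot be told apart. The most abundant member was Cyp2e1, which oxidizes ethanol, acetone and acetaminophen and had a mean of 3002 TPM over the 19 mice and 19.2% of all member TPM, followed by Cyp2c29 at 1680 and Cyp3a11 at 1101 TPM. The 10 most abundant members held 68.7%. At the other end, 7 members (Cyp2b19, Cyp2b23, Cyp2c66, Cyp2j7, Cyp2j12, Cyp2j13 and Cyp2w1) were listed at 0 in every mouse and 7 more had means below 0.1 TPM, so that 43 of the 57 members passed the filter and were tested, 23 of which had means of 100 TPM or more.

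**Figure D1:**
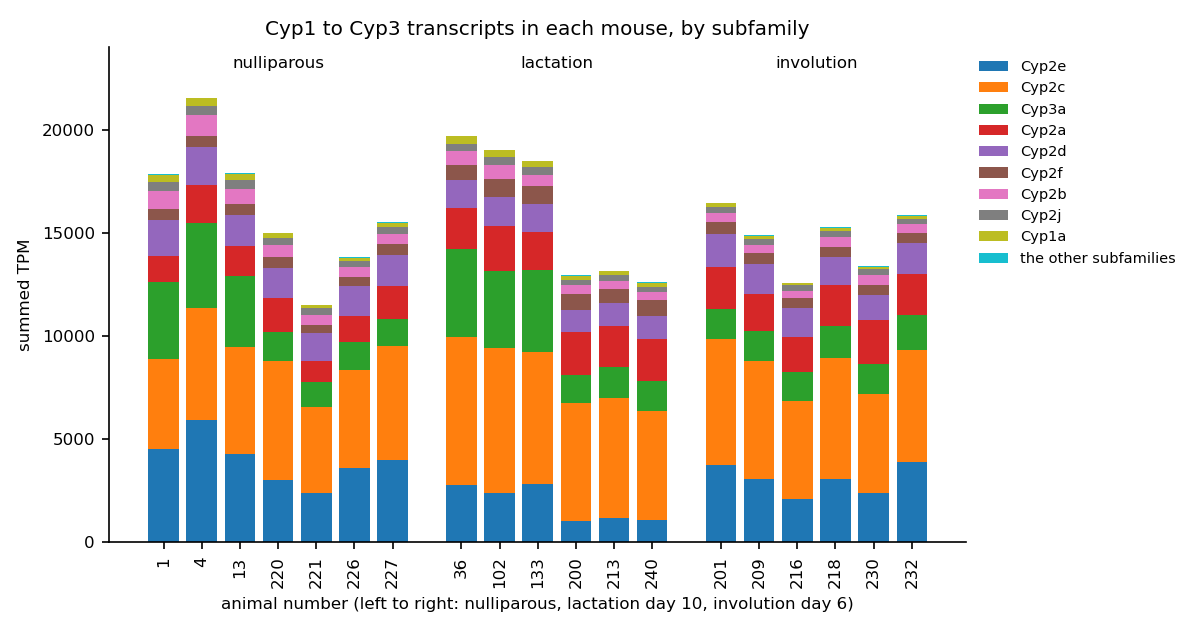
Stacked bars give the summed TPM (y axis) of each P450 subfamily in each mouse (x axis, animal number), with the subfamilies coloured as in the key. The 6 mice numbered under 200, 3 nulliparous and 3 lactating, had higher totals than the other mice of their stage, and the Cyp2e part was smallest in lactating mice numbered 200 and above.

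The mice were not alike within a stage, and this bears on every comparison. The animal numbers in the labels run from 1 to 240, and the 3 nulliparous mice and 3 lactating mice numbered under 200 differed from those numbered 200 and above in many members. All 6 involution mice were numbered 200 or above. The labels give no meaning to these numbers, and the split at 200 was chosen with earlier results of these mice known, so it is a range of animal number and not a batch named by the authors. Summed member TPM was 19086 ± 2124 in the 3 nulliparous mice under 200 and 13955 ± 1784 in the 4 numbered 200 and above. The corresponding lactation means were 19073 and 12898 TPM. Stage comparisons are therefore also given within the mice numbered 200 and above, where all 3 stages are present. The test was limma-trend, a linear model of log2(TPM + 1), and p-values were adjusted by Benjamini-Hochberg over 16230 genes. A gene rose or fell at an adjusted p under 0.05, and it was called where the log2 change was also at least 1 in size. Fold changes on the log2(TPM + 1) scale understate those of low genes.

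Individual P450 genes differed in both directions in lactation. Between lactation day 10 and nulliparous livers, 8 of the 43 members tested (18.6%) passed the test, against 9.21% of all genes. Of these, 4 rose (Cyp2a4, Cyp2f2, Cyp2r1 and Cyp2c55, against 2.72% of all genes) and 4 fell (Cyp2b13, Cyp2e1, Cyp2d9 and Cyp2c67, against 6.49%). Called were Cyp2a4, Cyp2c55, Cyp2b13 and Cyp2e1, 4 members (9.30%) against 0.746% of all genes. In 3 members, Cyp2a4, Cyp2f2 and Cyp2d9, the groups did not overlap, as in 3.27% of all genes. The median log2 change of the 43 members was 0.04, and that of all genes was -0.03. Within the mice numbered 200 and above, 10 members passed (6 higher and 4 lower, against 7.07% of all genes), and with the range of animal number as a covariate 18 did (9 in each direction, against 15.7% of all genes).

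Between lactation day 10 and involution day 6, 13 members (30.2%) passed the test, against 22.8% of all genes, but the direction was unlike that of the table as a whole. Among members 9 were lower in involution (Cyp1a2, Cyp2b10, Cyp2c29, Cyp2c44, Cyp2c55, Cyp2d40, Cyp2f2, Cyp2j6 and Cyp2r1), a direction taken by 4.73% of all genes, and 4 were higher (Cyp2c39, Cyp2c68, Cyp2e1 and Cyp2u1), a direction taken by 18.1% of all genes. Called were Cyp2b10, Cyp2c55 and Cyp2u1, against 1.93% of all genes, and the groups did not overlap in 7 members, against 11.5% of all genes. With the range of animal number as a covariate, called were Cyp2b10, Cyp2b13 (higher by 1.01, adjusted p = 0.000829) and Cyp2e1 (higher by 1.27, adjusted p = 0.000148), against 1.32% of all genes, and within the mice numbered 200 and above Cyp2b10 and Cyp2e1, against 1.52%. The split depended on the scaling. After median-ratio scaling, which moved the median log2 change of all genes from 0.10 to -0.0042, 10 members were lower (against 8.26% of all genes) and 0 were higher (against 8.08%). It depended on the mice as well, since within those numbered 200 and above 7 members were higher and 4 lower, against 14.1% of all genes passing, and with the covariate 10 were higher and 5 lower, against 16.8%. The median change of the members was -0.08 before and -0.24 after this scaling.

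Few members differed between involution day 6 and nulliparous livers. In this comparison 3 members passed the test and were called, Cyp2a4 (higher) and Cyp2b13 and Cyp2b10 (lower), against 4.36% of all genes passing and 0.253% called. In Cyp2a4 and Cyp2b13 the groups did not overlap, as in 2.38% of all genes. Within the mice numbered 200 and above Cyp2a4 alone passed, against 0.819% of all genes. With median-ratio scaling only Cyp2b13 was called, and Cyp2a4 passed with a log2 change of 0.97 (adjusted p = 5.66e-05). Both comparisons with involution use lactation or nulliparous mice that the first comparison also used, so their values are not independent of it.

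**Figure D2:**
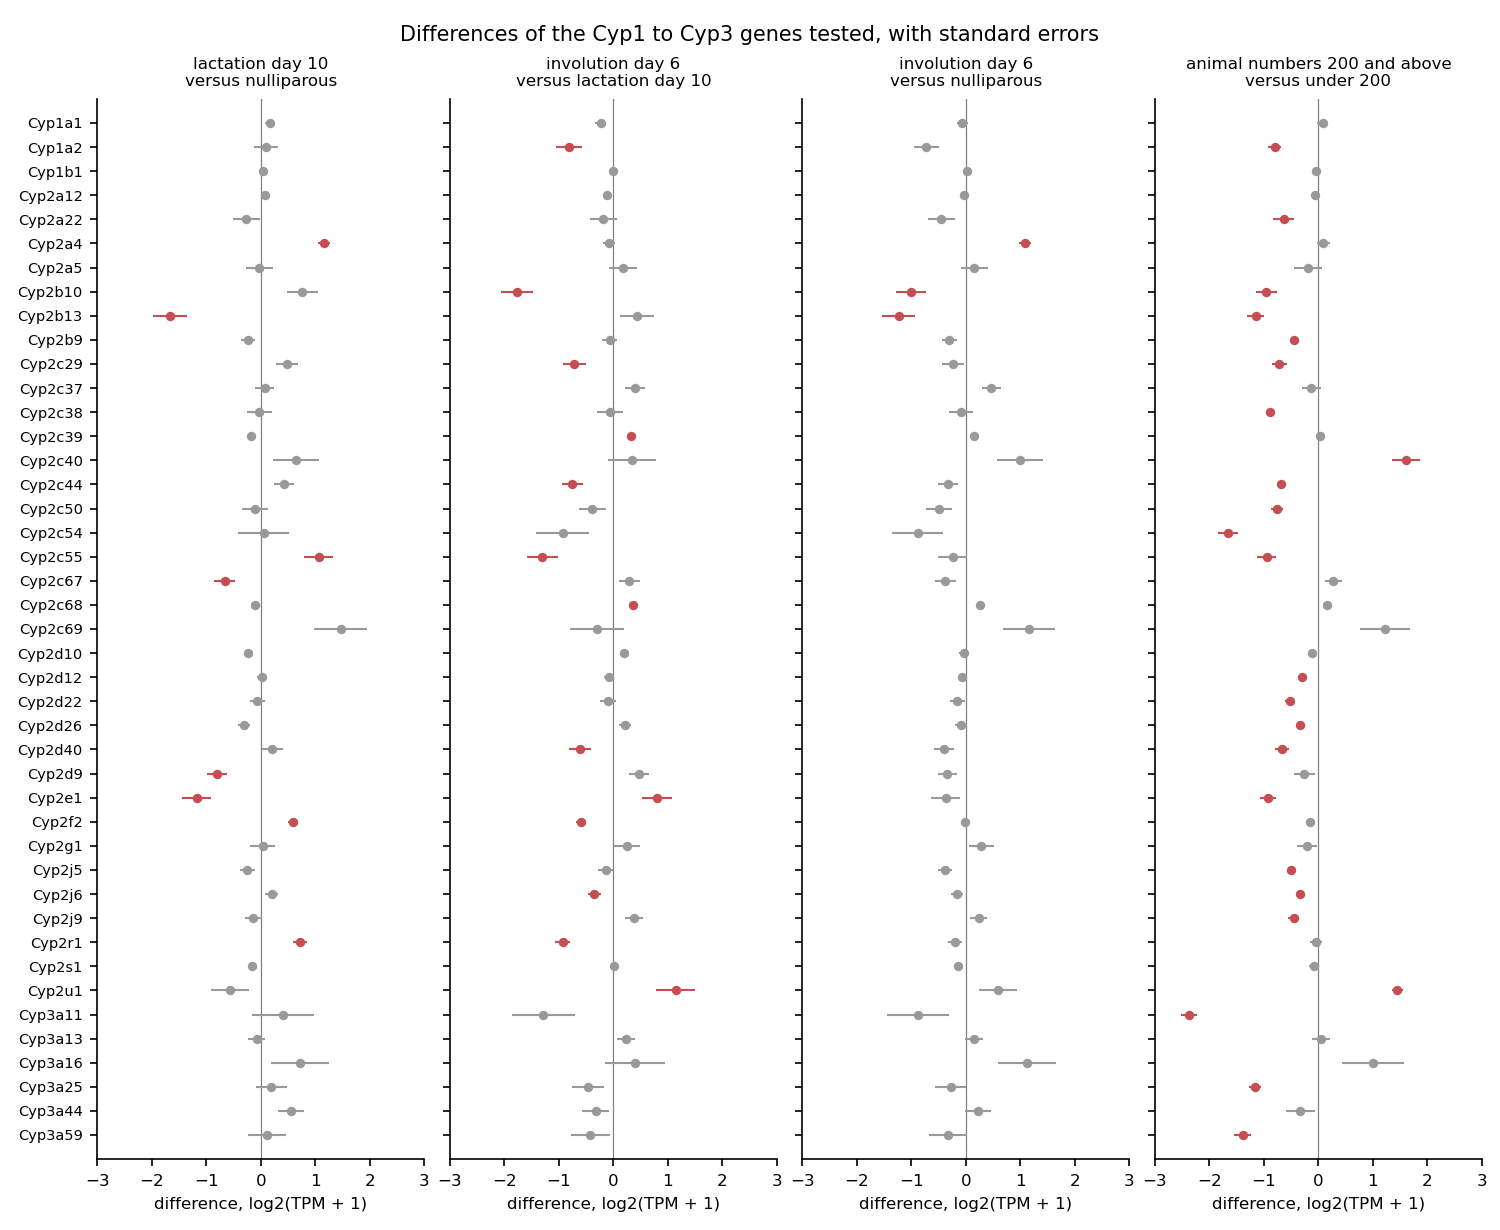
Points are differences on the log2(TPM + 1) scale (x axis) for the 43 members tested (rows, by subfamily), with bars of 1 standard error, in the 3 stage comparisons and between ranges of animal number in nulliparous and lactating mice with stage in the fit. Red points have an adjusted p under 0.05, and they number 8, 13, 3 and 24 from left to right.

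In the Cyp2a subfamily, Cyp2a4 had the smallest adjusted p of all members in lactation, and its near-identical neighbour Cyp2a5 did not pass the test. Cyp2a4 is a female-predominant steroid hydroxylase, Cyp2a5 hydroxylates coumarin and nicotine, and they lie on chromosome 7 (GRCm38, 26307169 to 26315088 and 26835305 to 26843548, plus strand) with 98.5% identity of their coding sequences. The 250 bases before the RefSeq start of each gene (GRCm38.p6, chr7:26306942-26307191 and chr7:26835089-26835338, plus strand) differ by 4 substitutions and 2 unpaired bases at the ends, and are shown because the levels of the pair moved apart. Capitals mark the bases that differ.
Cyp2a4: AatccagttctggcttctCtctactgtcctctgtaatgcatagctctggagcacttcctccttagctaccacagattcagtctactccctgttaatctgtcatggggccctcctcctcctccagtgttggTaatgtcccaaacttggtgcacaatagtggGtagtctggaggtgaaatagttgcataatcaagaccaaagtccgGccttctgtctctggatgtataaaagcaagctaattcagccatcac
Cyp2a5: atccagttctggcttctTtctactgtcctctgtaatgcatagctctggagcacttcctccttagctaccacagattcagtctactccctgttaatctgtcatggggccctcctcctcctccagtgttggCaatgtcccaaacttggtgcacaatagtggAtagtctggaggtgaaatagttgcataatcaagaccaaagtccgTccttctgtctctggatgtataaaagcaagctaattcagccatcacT
Both windows hold TTATGNAA on the minus strand, a letter pattern like those bound by PAR bZIP and C/EBP factors, at -70 to -63 in Cyp2a4 and -71 to -64 in Cyp2a5, and the pattern was found in 3.38% of all 32851 RefSeq promoter windows on either strand. TATAAA follows at -28 to -23 and -29 to -24. A match is a description of letters only.

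Cyp2a4 ranged from 352 to 632 TPM in nulliparous mice (median 493), from 900 to 1135 in lactation (median 1091) and from 914 to 1088 in involution (median 967). No nulliparous mouse reached the level of any lactating or involution mouse. Its mean rose from 475 ± 91.3 TPM (n = 7) to 1051 ± 98.1 (n = 6), 2.21-fold, a log2 change of 1.16 ± 0.11 (SE, limma-trend adjusted p = 4.53e-06), and it was still at 993 ± 75.7 in involution (log2 change from nulliparous 1.08 ± 0.11, adjusted p = 2.18e-05). The rise was called in the mice numbered 200 and above (log2 change 1.23, adjusted p = 0.000719) and in those under 200 (1.09, adjusted p = 0.0259).

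Cyp2a5 ranged from 167 to 584 TPM in nulliparous mice (median 288), from 278 to 388 in lactation (median 306) and from 224 to 482 in involution (median 400). These groups overlapped widely, and the log2 change in lactation was -0.03 ± 0.25 (adjusted p = 0.964). Reads that fit both genes are divided by the quantification, so the division between the pair is uncertain, but the sum is less so: Cyp2a4 and Cyp2a5 together gave 829.5 ± 209.5 TPM in nulliparous mice and 1371 ± 111 in lactation. The ratio of Cyp2a4 to Cyp2a5 was 0.783 to 2.13 in nulliparous mice and 2.68 to 4.06 in lactation, with no overlap. Cyp2a12, the next most abundant member of the subfamily, was steady at 514 ± 35.9, 544 ± 9.72 and 502 ± 36.2 TPM, and its log2 change in lactation was 0.08 (adjusted p = 0.402).

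The Cyp2b genes are neighbours of the Cyp2a genes on chromosome 7, and 3 of them were tested. Cyp2b13 and Cyp2b9 are female-predominant genes with 92.7% coding identity, and Cyp2b10 is the classic target of the receptor CAR. The 250 bases before the starts of Cyp2b9 (chr7:26173159-26173408) and Cyp2b13 (chr7:26061245-26061494) differ at only 2 positions, an identity of 99.2%, and are shown because Cyp2b13 fell in lactation and Cyp2b9 did not pass. Capitals mark those positions. The window of Cyp2b10 (chr7:25897408-25897657) is shown because its fall from lactation to involution was called. Its capitals mark matches to TTATGNAA (-58 to -51) and GCGTG, the core letters of the AhR element (-101 to -97 and -9 to -5). GCGTG was found in 32.4% of all windows. All 3 are on the plus strand.
Cyp2b9: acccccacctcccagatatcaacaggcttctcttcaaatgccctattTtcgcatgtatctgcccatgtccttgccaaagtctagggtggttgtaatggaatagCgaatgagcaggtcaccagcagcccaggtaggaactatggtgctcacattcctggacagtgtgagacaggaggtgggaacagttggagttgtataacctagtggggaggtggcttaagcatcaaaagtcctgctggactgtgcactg
Cyp2b13: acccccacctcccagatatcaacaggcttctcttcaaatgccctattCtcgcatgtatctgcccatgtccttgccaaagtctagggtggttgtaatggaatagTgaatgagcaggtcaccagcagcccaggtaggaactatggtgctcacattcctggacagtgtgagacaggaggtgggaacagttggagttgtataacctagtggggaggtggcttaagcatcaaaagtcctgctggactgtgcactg
Cyp2b10: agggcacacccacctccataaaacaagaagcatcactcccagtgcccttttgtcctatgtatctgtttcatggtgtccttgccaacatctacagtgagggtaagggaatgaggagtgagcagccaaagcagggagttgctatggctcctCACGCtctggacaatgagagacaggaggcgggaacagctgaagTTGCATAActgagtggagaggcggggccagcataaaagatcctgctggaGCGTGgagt

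Cyp2b13 ranged from 97.9 to 398 TPM in nulliparous mice (median 140), from 37.6 to 99.2 in lactation (median 49.9) and from 52.3 to 90.6 in involution (median 79.3). Of the lactating mice, LAC_36 at 99.24 TPM was the one above the lowest nulliparous value of 97.88 TPM. The mean fell from 197 ± 113 TPM to 57.2 ± 23.9 in lactation, a log2 change of -1.67 ± 0.31 (adjusted p = 0.00193). It fell in both ranges of animal number, by 1.52 on the log2 scale in the mice numbered 200 and above (adjusted p = 0.000612) and by 2.01 in those under 200 (adjusted p = 0.0274). Cyp2b9 stood at 386 ± 57.4 TPM in nulliparous mice, 332 ± 75.9 in lactation and 313 ± 50.4 in involution (lactation log2 change -0.24 ± 0.14, adjusted p = 0.317, and -0.27, adjusted p = 0.0455, with the range of animal number as a covariate). The ratio of Cyp2b9 to Cyp2b13 thus had a median of 2.56 in nulliparous mice, 6.77 in lactation and 4.58 in involution.

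Cyp2b10 ranged from 40.4 to 129 TPM in nulliparous mice (median 68.4), from 73.2 to 229 in lactation (median 104) and from 23.9 to 41.4 in involution (median 31.5). The involution mice lay below every lactating mouse and overlapped the lowest nulliparous mice. From lactation to involution it fell by 1.76 ± 0.29 on the log2 scale (adjusted p = 0.000268), and within the mice numbered 200 and above it fell by 1.27 (adjusted p = 0.00114). The difference between lactation and nulliparous livers was 0.76 ± 0.28 (adjusted p = 0.101), and 0.69 (adjusted p = 0.0137) with the range of animal number as a covariate, and that between involution and nulliparous livers was -1.01 ± 0.28 (adjusted p = 0.0488). The last difference did not pass when any of 14 single mice was left out and within the mice numbered 200 and above (log2 change -0.61, adjusted p = 0.179).

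**Figure D3:**
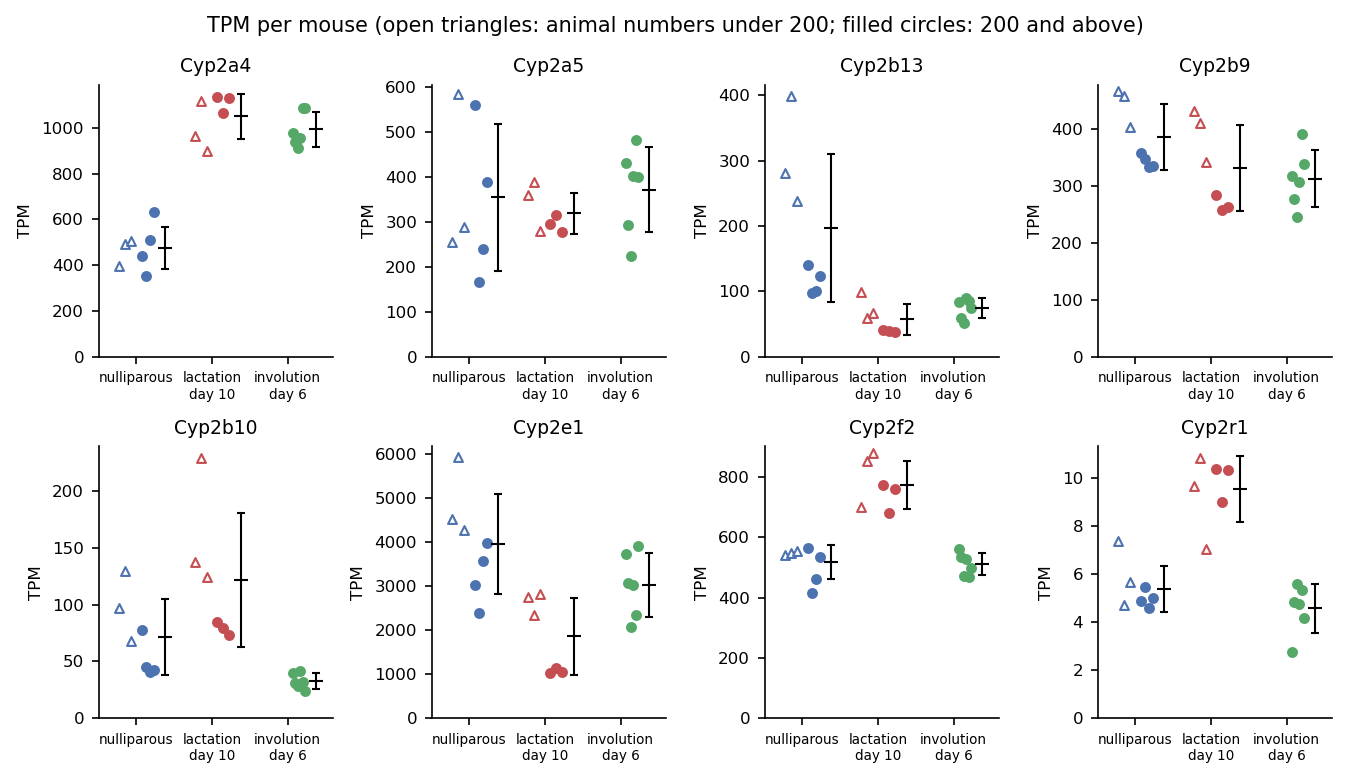
TPM (y axis, from 0) in each mouse by stage (x axis), for 8 members, with the mean and SD in black beside each group. Open triangles are mice numbered under 200 and filled circles those numbered 200 and above, and in Cyp2a4 and Cyp2f2 all lactating mice lie above all nulliparous mice in both ranges.

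Cyp2e1 and Cyp1a2 are known as pericentral enzymes. Cyp2e1 (chromosome 7, 140763739 to 140774987) ranged from 2396 to 5932 TPM in nulliparous mice (median 3981), from 1037 to 2831 in lactation (median 1749) and from 2063 to 3900 in involution (median 3052). It fell in lactation from 3958 ± 1141 to 1865 ± 876 TPM, a log2 change of -1.18 ± 0.27 (adjusted p = 0.00876), and was the most abundant member that moved with stage. The level also moved with animal number. The nulliparous mice under 200 had 4531, 5932 and 4283 TPM and those numbered 200 and above had 3018, 2396, 3567 and 3981 TPM. The lactating mice under 200 had 2763, 2354 and 2831 TPM and those numbered 200 and above had 1037, 1144 and 1060 TPM. Within each range no lactating mouse reached a nulliparous one, with log2 changes of -1.56 (200 and above, adjusted p = 0.00144) and -0.88 (under 200, adjusted p = 0.0441), and the difference between these changes did not pass the test (-0.68 ± 0.24, adjusted p = 0.267). From lactation to involution Cyp2e1 rose by 0.80 ± 0.28 (adjusted p = 0.0433), and by 1.45 within the mice numbered 200 and above (adjusted p = 0.000483). With median-ratio scaling that change was 0.64 (adjusted p = 0.154), and it did not pass when any of 7 single mice was left out. The 6 pericentral markers that are no P450 genes, such as Glul and Oat, summed to 618 to 1763 TPM in nulliparous mice, 402 to 1443 in lactation and 453 to 550 in involution. Of these markers 2 fell in lactation (against 6.49% of all genes) and 1 rose in involution against lactation (against 18.1%). Between ranges, 2 were lower and 1 higher in the mice numbered 200 and above (against 9.11% and 16.5%). Within these mice Oat, Axin2 and Lgr5 fell in lactation, against 7.07% of all genes passing. With the range of animal number as a covariate Glul fell as well, 4 in all, against 15.7% of all genes passing. By limma-trend 0 passed in involution against lactation in either setting (against 14.1% and 16.8%). The part of these markers in the Cyp2e1 and Cyp1a2 values was not tested.

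Cyp1a2, which oxidizes caffeine and arylamines and is an AhR target, ranged from 130 to 360 TPM in nulliparous mice, from 192 to 353 in lactation and from 108 to 191 in involution. Lactation and nulliparous livers had means within the spread between mice (265 ± 73.0 and 255 ± 89.2 TPM, log2 change 0.09 ± 0.23, adjusted p = 0.857). The involution mice lay below all lactating mice at 148 ± 31.7 TPM (log2 change -0.82 ± 0.24, adjusted p = 0.0174), but within the mice numbered 200 and above the change was -0.46 (adjusted p = 0.148). Cyp1a1, the inducible AhR target, was at 0.09 to 0.78 TPM over all mice, and Cyp1b1, which is made mostly outside hepatocytes, at 0.07 to 0.20 TPM.

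Among subfamilies with 1 gene, Cyp2f2 and Cyp2r1 rose in lactation and fell from lactation to involution, where neither differed from nulliparous livers past the threshold (log2 differences of -0.01, adjusted p = 0.935, and -0.20, adjusted p = 0.322). Cyp2f2, known for activating naphthalene in lung club cells and also made by liver, ranged from 414 to 564 TPM in nulliparous mice (median 540), from 681 to 878 in lactation (median 766) and from 469 to 561 in involution (median 512). Every lactating mouse was above every other mouse. The mean rose from 516 ± 56.6 to 774 ± 79.1 TPM (log2 change 0.58 ± 0.08, adjusted p = 0.00021) and fell to 510 ± 36.7 TPM (log2 change -0.60 ± 0.08, adjusted p = 6.45e-05), and both changes passed within the mice numbered 200 and above (0.59, adjusted p = 0.00534, and -0.53, adjusted p = 0.00264). The lung markers Scgb1a1, Sftpc and Sftpb summed to between 0 and 0.26 TPM in every mouse. Gm15883 overlaps an exon of Cyp2f2 on the other strand.

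Cyp2r1, a vitamin D hydroxylase of the liver, ranged from 4.60 to 7.38 TPM in nulliparous mice (median 5.01), from 7.07 to 10.8 in lactation (median 10.0) and from 2.77 to 5.60 in involution (median 4.80). It rose by 0.72 ± 0.13 on the log2 scale in lactation (adjusted p = 0.00137) and fell by 0.93 ± 0.13 from lactation to involution (adjusted p = 6.81e-05). Mouse NUL_1, at 7.38 TPM, was the one nulliparous mouse inside the lactation range. Cyp2u1, a fatty acid hydroxylase, was higher in involution than in lactation (4.22 ± 0.79 against 1.58 ± 1.19 TPM, log2 change 1.14 ± 0.36, adjusted p = 0.0287), and within the mice numbered 200 and above by 0.52 (adjusted p = 0.0246). The larger value with all mice did not pass when any of 7 single mice was left out. Between nulliparous and lactating livers Cyp2u1 did not pass with all mice (log2 change -0.56 ± 0.35, adjusted p = 0.362). It fell in lactation within the mice numbered 200 and above (means of 4.61 and 2.63 TPM) and with the range of animal number as a covariate. An antisense transcript, 4930534D22Rik, overlaps an exon of Cyp2u1. Cyp2g1 stood at 19.8 ± 6.21, 19.8 ± 3.63 and 24.9 ± 9.34 TPM, Cyp2s1 at 0.16 to 0.68 TPM over all mice and Cyp2t4 at 0.01 TPM in a single mouse and 0 in the rest.

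The Cyp2c genes, a cluster on chromosome 19 whose products epoxidize or hydroxylate arachidonic acid and oxidize many drugs, held the largest share of member TPM after summing by subfamily (5027 ± 613 TPM in nulliparous mice, 6232 ± 763 in lactation and 5451 ± 549 in involution). Cyp2c29, the most abundant of them, ranged from 957 to 2323 TPM in nulliparous mice, from 1488 to 3019 in lactation and from 1149 to 1495 in involution. It was lower in involution than in lactation by 0.72 ± 0.21 on the log2 scale (adjusted p = 0.0196), but by 0.29 (adjusted p = 0.245) within the mice numbered 200 and above. It also missed the threshold without LAC_102 or LAC_133, with log2 changes from -0.82 to -0.62 over all mice left out. Cyp2c55, a low member at 0.29 to 3.84 TPM in nulliparous mice (median 1.11), stood at 1.98 to 6.91 TPM in lactation (median 4.49) and 0.78 to 1.48 TPM in involution (median 1.11). It rose in lactation by 1.06 ± 0.27 (adjusted p = 0.0169) and fell again by 1.30 ± 0.28 (adjusted p = 0.00224), and both changes also passed within the mice numbered 200 and above.

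Cyp2c68 rose by 0.36 ± 0.08 from lactation (152 ± 17.9 TPM) to involution (195 ± 18.5 TPM, adjusted p = 0.00422), a change of 0.26 (adjusted p = 0.112) within the mice numbered 200 and above and 0.20 (adjusted p = 0.162) with median-ratio scaling. Cyp2c67, Cyp2c68 and Cyp2c69 share 96.5% to 97.7% of their coding bases, and so their separate values are uncertain. Cyp2c67 fell in lactation (log2 change -0.67 ± 0.19, adjusted p = 0.032). It passed in the mice under 200 and with the range of animal number as a covariate. It did not pass within the mice numbered 200 and above or with median-ratio scaling. Cyp2c69 had a lactation difference of 1.46 ± 0.48 (adjusted p = 0.0629), or 0.88 (adjusted p = 0.0333) within the mice numbered 200 and above. The sum of Cyp2c67, Cyp2c68 and Cyp2c69 was 628 ± 228 TPM in nulliparous mice and 1032 ± 268 in lactation. Cyp2c40, named here for its pattern with animal number after its values were seen, differed by 0.65 ± 0.42 in lactation (adjusted p = 0.395), and by 0.76 (adjusted p = 0.0242) with the range of animal number as a covariate.

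In the Cyp2d subfamily on chromosome 15, Cyp2d9, a male-predominant steroid hydroxylase, fell in lactation. It ranged from 71.96 to 182 TPM in nulliparous mice (median 98.3), from 49.1 to 71.7 in lactation (median 66.0) and from 80.0 to 98.1 in involution (median 91.4). The lactating mice lay below all other mice, although the highest of them and the lowest nulliparous mouse were at 71.72 and 71.96 TPM. The log2 change was -0.80 ± 0.18 (adjusted p = 0.0066). It was -0.48 (adjusted p = 0.106) within the mice numbered 200 and above and -1.22 (adjusted p = 0.0615) in those under 200. Cyp2d26, the most abundant of the subfamily, stood at 764 ± 70.1, 626 ± 121 and 721 ± 81.8 TPM in the 3 stages (lactation log2 change -0.31 ± 0.11, adjusted p = 0.0819). Within the mice numbered 200 and above it fell in lactation (-0.48, adjusted p = 0.0089) and rose in involution (0.47, adjusted p = 0.00284). Cyp2j5, an arachidonic acid epoxygenase, stood at 343 ± 68.7, 288 ± 54.4 and 260 ± 30.8 TPM and passed in no stage comparison with all 19 mice, but with the range of animal number as a covariate it fell in lactation (-0.28, adjusted p = 0.00844).

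Of the 7 Cyp3a members, the subfamily of steroid and drug oxidases on chromosome 5 that includes the PXR target Cyp3a11, 6 were tested and 0 passed in a stage comparison with all 19 mice by limma-trend. An unadjusted p under 0.05 was found for Cyp3a44 in lactation (as for 23.1% of all genes) and for Cyp3a11 in involution against lactation (as for 35.2%). Cyp3a11 ranged from 350 to 2928 TPM in nulliparous mice, from 531 to 2459 in lactation and from 383 to 587 in involution, and most of that width followed animal number. Within the mice numbered 200 and above it was higher in lactation by 0.62 on the log2 scale (adjusted p = 0.0265). Cyp3a41a and Cyp3a41b, female-predominant genes that the rule for members does not match, share 95.17% and 95.04% of their coding bases with Cyp3a11 and 99.87% with each other, and their sum was 452 ± 286 TPM in nulliparous mice, 1913 ± 966 in lactation and 711 ± 141 in involution. Cyp3a41a rose in lactation by 2.16 ± 0.40 (adjusted p = 0.00215) and Cyp3a41b by 2.82 ± 0.70 (adjusted p = 0.0159). Within the mice numbered 200 and above Cyp3a41a passed and Cyp3a41b did not. Means of Cyp3a41b there were 156 TPM in nulliparous and 321 TPM in lactating mice. In the mice under 200 they were 33.0 and 539 TPM.

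Between the ranges of animal number more members differed than between stages. With stage in the fit over the 13 nulliparous and lactating mice, 24 of 43 members (55.8%) passed, against 25.6% of all genes, and 22 of them were lower in the mice numbered 200 and above, a direction taken by 9.11% of all genes, and 2 were higher, against 16.5%. Called were 7 members, against 1.94% of all genes, 5 lower (Cyp3a11, Cyp2c54, Cyp3a59, Cyp3a25 and Cyp2b13) and 2 higher (Cyp2c40 and Cyp2u1). In 15 members the ranges did not overlap, as in 7.89% of all genes. The split was chosen with results of these mice known, so these counts describe these mice.

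Of the 43 members tested, Cyp3a11 had the largest difference on the log2(TPM + 1) scale, which understates low genes such as Cyp2u1. The 3 nulliparous mice under 200 had 2784, 2928 and 2161 TPM, and the 4 numbered 200 and above had 376, 363, 459 and 350 TPM. The lactating mice under 200 had 2372, 1997 and 2459 TPM, and those numbered 200 and above had 556, 531 and 699 TPM. All 6 involution mice, at 383 to 587 TPM, were near the latter. The log2 difference was -2.37 ± 0.15 (adjusted p = 4.07e-07). Cyp3a25 (-1.16 ± 0.11, adjusted p = 9.88e-06), Cyp2c38 (-0.88 ± 0.08, adjusted p = 7.41e-06) and Cyp2j5 (-0.50 ± 0.05, adjusted p = 1.65e-05) were lower in the same mice. So was Cyp2c54 (-1.66 ± 0.18, adjusted p = 3.84e-05), which is named for its size and outside the rule for named genes.

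Cyp2c40 and Cyp2u1 went the other way. Cyp2c40 had 270, 132 and 405 TPM in the nulliparous mice under 200 against 1032, 903, 1027 and 1328 TPM in the others, and 599, 763 and 529 TPM against 1251, 1300 and 1218 TPM in lactation (log2 difference 1.60 ± 0.25, adjusted p = 0.000655). Cyp2u1 had 0.81, 0.77 and 0.86 TPM against 5.45, 4.30, 4.21 and 4.47 TPM in nulliparous mice, and 0.68, 0.36 and 0.53 TPM against 2.58, 2.22 and 3.09 TPM in lactation (1.45 ± 0.10, adjusted p = 5.43e-07). Whether the lactation change itself differed between the ranges was tested as an interaction. By limma-trend 0 members passed, against 0.111% of all genes. The smallest adjusted p was 0.153, and 10 members had an unadjusted p under 0.05, against 13.3% of all genes. The 2 smallest adjusted p-values were in the Cyp3a subfamily. Cyp3a44 had lactation to nulliparous log2 changes of 1.32 under 200 and -0.17 at 200 and above (difference -1.49 ± 0.35, adjusted p = 0.153), and without NUL_13 it was the 1 member that passed (-1.86, adjusted p = 0.0136).

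**Figure D4:**
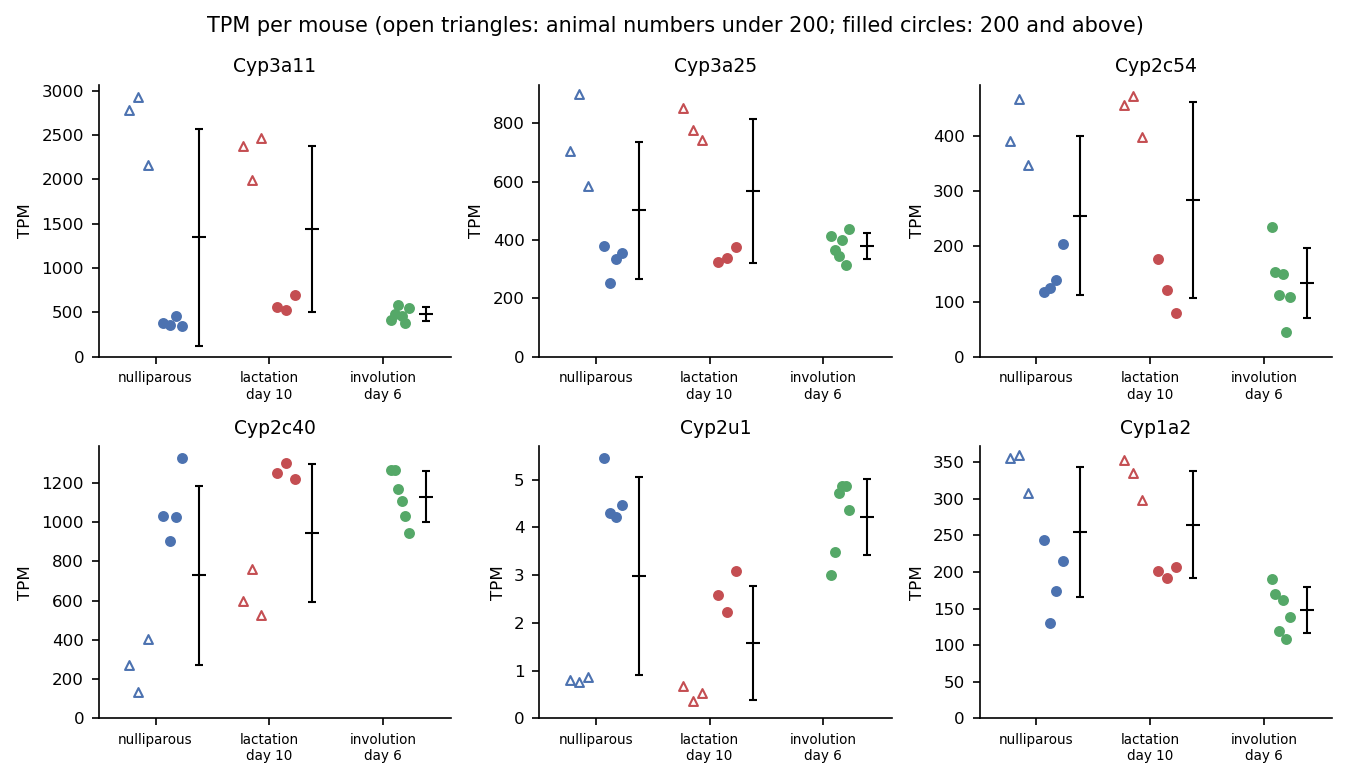
TPM (y axis, from 0) in each mouse by stage (x axis) for 6 members, with the mean and SD in black beside each group. Open triangles are mice numbered under 200 and filled circles those numbered 200 and above, and the triangles and circles of a stage do not overlap in any of the 6 genes.

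Genes that work with P450 enzymes were taken from lists chosen with earlier results of these data known. Of 5 electron partners, 3 rose in lactation (against 2.72% of all genes) and 4 fell in involution against lactation (against 4.73%). Por, the reductase, stood at 108 ± 13.9 TPM in nulliparous mice, 167 ± 54.5 in lactation and 94.3 ± 12.9 in involution (log2 changes 0.56 ± 0.16, adjusted p = 0.0387, and -0.76 ± 0.17, adjusted p = 0.00355), and its level moved with animal number. Its means were 115 TPM in nulliparous and 211 TPM in lactating mice under 200, and 103 and 122 TPM in those numbered 200 and above, where the lactation change was 0.23 (adjusted p = 0.449) and the involution change -0.36 (adjusted p = 0.120). Cyb5b (0.57, adjusted p = 6.16e-05) and the cytochrome b5 reductase Cyb5r3 (0.68, adjusted p = 0.000147) also rose, within the mice numbered 200 and above as well (0.65, adjusted p = 0.00149, and 0.73, adjusted p = 0.0055), and Por, Cyb5b, Cyb5r3 and Pgrmc1 fell from lactation to involution. Cyb5a, the most abundant of the 5, passed in no stage comparison with all 19 mice. Within the mice numbered 200 and above it fell in lactation, from a mean of 1498 TPM to 1167 TPM (against 7.07% of all genes passing). With the range of animal number as a covariate it also fell (against 15.7%). The median log2 change of the 5 in lactation was 0.56, and that of all genes was -0.03. Of 8 heme synthesis genes, Uros fell in lactation and 0 passed in the other 2 stage comparisons by limma-trend. Alas1, the rate-limiting enzyme, ranged from 89.9 to 718 TPM in nulliparous mice and from 354 to 997 in lactation (1.13 ± 0.40, adjusted p = 0.0881).

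Of the 6 xenobiotic receptor genes 5 were tested and 0 passed in any stage comparison by limma-trend. Nr1i2 stood at 29.3 ± 2.98, 27.3 ± 4.78 and 27.6 ± 2.99 TPM, Nr1i3 at 122.5 ± 36.7, 107 ± 46.1 and 94.1 ± 19.9 TPM and Ahr at 6.19 ± 0.78, 7.26 ± 1.99 and 5.68 ± 1.85 TPM in the 3 stages. Between ranges of animal number Nr1i3 was lower in the mice numbered 200 and above (-0.92 ± 0.10, adjusted p = 3.06e-05), with nulliparous means of 159 and 95.3 TPM and lactation means of 148 and 65.9 TPM. Of 7 other genes known as targets of CAR and PXR, Ephx1, Gadd45b and Akr1b7 rose in lactation (against 2.72% of all genes) and fell in involution against lactation (against 4.73%). Ugt1a1 rose in involution against lactation (0.43, adjusted p = 0.00708), a direction taken by 18.1% of all genes. Of the 7, 5 (Ces2a, Abcc3, Abcb1a, Gadd45b and Ugt1a1) were lower in the mice numbered 200 and above. Akr1b7, an aldo-keto reductase, went from 3.38 ± 1.68 to 22.3 ± 4.31 TPM in lactation (2.46 ± 0.20, adjusted p = 3.69e-06), and Gadd45b from 6.43 ± 1.99 to 18.6 ± 8.28 TPM (1.33 ± 0.29, adjusted p = 0.00611). Within the mice numbered 200 and above Gadd45b did not pass in lactation. Ephx1, Ugt1a1 and Akr1b7 passed there, 2 higher and 1 lower, against 7.07% of all genes.

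Of 8 genes of growth hormone and STAT5 signaling, which sets the sex difference of many P450 genes, Ghr, Stat5a and Stat5b fell in lactation (against 6.49% of all genes), and these 3 and Prlr rose in involution against lactation (against 18.1%). With median-ratio scaling 3 rose there, against 8.08% of all genes. Stat5b stood at 18.99 ± 1.62, 13.9 ± 2.25 and 20.7 ± 1.93 TPM in the 3 stages (-0.43 ± 0.09, adjusted p = 0.00506, and 0.55 ± 0.09, adjusted p = 0.000352). Of the 9 genes listed as female-predominant liver P450s, Cyp2a4, Cyp3a41a and Cyp3a41b rose in lactation, Cyp2b13 fell and 5 did not pass. With the range of animal number as a covariate 3 of these 5 passed, Cyp2b9 (-0.27, adjusted p = 0.0455), Cyp2c40 and Cyp2c69 (1.55, adjusted p = 0.0128). Within the mice numbered 200 and above Cyp3a41b did not pass and Cyp2c69 did. Of 11 liver transcription factors 0 passed in lactation, and Nr3c1 rose in involution against lactation (against 18.1% of all genes). Nr3c1 did not pass within the mice numbered 200 and above or with median-ratio scaling, but it rose with the covariate. Nr0b2 rose there too (against 16.8% of all genes passing) and within the mice numbered 200 and above (against 14.1%). With median-ratio scaling Cebpb and Onecut1 fell in this comparison (against 8.26%). Of 9 PAR bZIP and clock factors, 0 passed in lactation, and Nfil3 and Arntl rose in involution against lactation (against 18.1%). Arntl did not pass within the mice numbered 200 and above, with the covariate or with median-ratio scaling. In lactation Tef and Per2 rose with the covariate (against 15.7% of all genes passing), and Tef rose with median-ratio scaling (against 9.15%). Of 4 other AhR target genes, Nqo1 fell in involution against lactation (against 4.73%). Nqo1 did not pass within the mice numbered 200 and above or with the covariate. Ugt1a6a rose in lactation within the mice numbered 200 and above (against 7.07% of all genes passing). From lactation to involution it fell in those mice (against 14.1%) and with the covariate (against 16.8%).

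Cell type markers moved with stage and with animal number too. The 6 hepatocyte markers were present in every mouse, with sums of 59857 to 94204 TPM in nulliparous mice, 100943 to 151263 in lactation and 80527 to 111739 in involution. Of these 1 rose in lactation, and 1 rose and 1 fell in involution against lactation. All 5 Kupffer cell markers fell in lactation (against 6.49% of all genes) and rose in involution against lactation (against 18.1%), with sums of 147 to 283, 95.6 to 200.9 and 326 to 467 TPM. All 5 were also higher in the mice numbered 200 and above (against 16.5% of all genes), the range of every involution mouse, and within that range all 5 fell in lactation and rose in involution. With median-ratio scaling 3 of the 5 fell in lactation. Of 5 stellate cell markers 3 fell in lactation and 2 rose in involution, and of 5 sinusoidal endothelial markers 2 fell and 3 rose. Of 6 periportal markers 0 fell or rose in lactation by limma-trend, and 1 rose in involution. Of 3 pancreatic acinar markers 1 fell in lactation and 1 rose in involution (sums of 21.1 to 41.8, 4.85 to 12.8 and 17.1 to 21.1 TPM), and of 5 bile duct markers 1 fell and 1 rose. Of 3 adipocyte markers 0 passed. The part of these changes in the P450 values was not tested.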

How the data were processed

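Liver RNA of 19 mice was enriched for poly(A) and sequenced in read pairs. The authors deposited TPM values, made with RSEM 1.3.1 on GRCm38 per the labels, and TPM keep no depth, so precision is known only from the spread between mice. RSEM divides reads among near-identical genes, and 16 members have a paralog with at least 95% coding identity. The table had 51826 entries. The 16230 genes averaging 0.1 TPM or more entered limma-trend on log2(TPM + 1) (limma 3.58.1, R 4.3.3), 1 mean per stage and all mice in one fit, at an adjusted p of 0.05 and, for calls, a log2 change of at least 1. The range of animal number was tested in nulliparous and lactating mice with stage in the fit. The test was checked on simulated data that had no difference between ranges of animal number. That check does not cover the uneven ranges between the stages. Coding identity and positions came from GENCODE M21, promoter windows from RefSeq (49 of 57 members matched). Cyp2c44 was matched by its RefSeq synonym. Named were members called in a stage comparison, those with the 5 smallest p in each comparison and the most abundant of each subfamily. Members and lists were chosen with earlier results of these data known. Alternatives were a pseudocount of 0.1, other filters, median-ratio scaling, the range of animal number as a covariate or a limit, and each mouse left out. Mice under 200 alone were added after the data were seen.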

Additional observations from a re-analysis of the deposited data

Results flagged for a closer look

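In the stages of the named members and their sum, 67 groups of mice were examined for a single value far from the rest, and 4 were found, near the 1 in 20 that chance gives. Cyp2d9 was 49.09 TPM in LAC_133, and the next lowest lactating mouse had 64.41 TPM. Cyp2r1 was 7.38 TPM in NUL_1, and the next highest nulliparous mouse had 5.70 TPM. Cyp2s1 was 0.46 TPM in ID6_230, and the next highest had 0.34 TPM. Cyp2t4 was 0.01 TPM in LAC_36 and 0 in the others, the smallest step the 2 decimals of the table allow.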

How the results depend on the processing

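No paired analysis was possible because each mouse was a separate animal, and no number in the labels is shared between stages. Without a threshold on the fold change the counts called became 8 in lactation (against 9.21% of all genes), 13 in involution against lactation (22.8%) and 24 between ranges of animal number (25.6%). Lactation calls numbered 2 in the mice under 200, against 0.709% of all genes. In involution against nulliparous mice 1 member was called, in place of 3. It was Cyp2b13 with median-ratio scaling (against 0.209% of all genes). It was Cyp2a4 with no filter, the range of animal number as a covariate (0.185%) and only mice numbered 200 and above (0.154%). Leaving out 1 mouse gave 1 to 3 calls there, 3 to 4 in lactation, 2 to 3 in involution against lactation, 7 to 10 between ranges and 0 to 1 for the interaction (1 without NUL_13). The shares of all genes called with no filter or with 1 mouse left out are not given here. Summed TPM changed direction between lactation and involution, from -1250.0 TPM to 1837 TPM in the mice numbered 200 and above.

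Among 19 pairs of a named member and a comparison it passed in, no direction turned. The adjusted p rose above 0.05 in 36 of 361 values with 1 mouse left out, 4 of 19 with median-ratio scaling, 6 of 19 in the mice numbered 200 and above, 3 of 7 in those under 200, 3 of 19 with the covariate and 0 with a pseudocount of 0.1. Cyp2c29 lost its involution fall without LAC_102 or LAC_133 (log2 change -0.82 to -0.62 over all mice left out). Cyp2e1 in involution against lactation lost its rise without LAC_200, LAC_213, LAC_240, ID6_201, ID6_209, ID6_218 or ID6_232 (0.66 to 0.95). Cyp2u1 lost its rise without LAC_36, LAC_102, LAC_133, ID6_216, ID6_218, ID6_230 or ID6_232 (0.98 to 1.30). Against nulliparous mice, Cyp2b13 lost its fall without NUL_1, NUL_4, NUL_13, ID6_209, ID6_216 or ID6_232 (-1.37 to -1.03), and Cyp2b10 without any of 14 mice (-1.12 to -0.84). The cause was not tested. TPM keep no depth, so what depth limits cannot be given, and the table's steps of 0.01 TPM limit the lowest members.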
